A study of Macaca mulatta with 6 samples.

Results

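Collagens, laminins and other proteins of the extracellular matrix were followed as RNA in 6 single-colony libraries of rhesus macaque bone marrow. A gene was included when its symbol had the form of a collagen chain (COL, a number, A, a number) or a laminin chain (LAM, then A, B or C, then a number), or was among 11 further matrix genes: DCN, LUM, SPARC, FN1, POSTN, FBN1, TINAGL1, SNED1, BGN, NID1 and HSPG2. SPARC was not analysed here, as none of the rows used maps to it. The rule gave 64 of the 32386 rows of the count table, namely 42 collagen chains, 12 laminin chains and 10 other matrix genes.

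The 3 libraries called UA came from colonies labelled TET2 uniallelic, genotype TET2+/-, with a mutation predicted to cause loss of function. Genotype was read from DNA of the same colony, which was split for DNA and RNA. The 3 libraries called WT came from colonies labelled wild type for TET2. Every colony of both groups was a granulocyte-macrophage colony (CFU-GM) grown for 14 days in semi-solid medium from CD34+ marrow cells, the fraction that holds blood stem and progenitor cells. The marrow was sampled 15 months after autologous transplantation of mobilized CD34+ cells that had been treated with CRISPR/Cas9, so WT colonies too arose after that treatment. How many animals the colonies came from is not stated, so a p-value here reflects library-to-library spread, part or all of which may be technical.

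Collagens are trimers of chains wound into a triple helix. Fibrillar types I, III and V build the fibres of connective tissue, and type IV builds the sheet of basement membranes, where laminin trimers of an alpha, a beta and a gamma chain, nidogen and perlecan join it. Fibroblasts, bone-forming cells and endothelium are the best known sources of most of these proteins in marrow, while fibronectin is also made by macrophages.

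Library totals ran from 6334264 to 17684447 counts in UA and from 10574104 to 25485143 in WT, and 3 counts correspond to 0.163 to 0.443 CPM (TMM-scaled counts per 1e6 counts) in UA and to 0.137 to 0.287 CPM in WT. TET2, the mutated gene, averaged 231 ± 6.65 CPM in UA and 93.8 ± 14.9 CPM in WT (SD, n = 3 each) and was thus higher in the libraries labelled UA (log2 1.30, SE 0.16, adjusted p = 3.93e-05 by edgeR). Counts per gene do not show which allele a read came from, so this level does not check the labels. The authors' deposited table, which does not name its comparison, has the sign of these count differences for 28.1% of 16620 genes and for 3 of 45 matrix genes. Every direction given here rests on the group labels of the count columns, and an exchange of the labels could not be tested. The UA libraries resembled each other more than the WT ones: the median gene's count spread between a pair of libraries was 4.12 to 5.16 times that of random sampling among UA pairs and 11.3 to 45.9 times among WT pairs. Reads amplified by PCR without molecule tags spread more than random sampling even between libraries of 1 RNA, so these ratios do not show whether the UA libraries came from separate RNA. They were kept as 3 samples because the labels give them as such, and a fit with the UA libraries summed to 1 sample is given where it changes a call. WT replicate 1 stood apart from the other WT libraries. Of the markers of granulocytes and monocytes, MPO (myeloperoxidase) had 16600 to 16900 CPM in UA and 684 to 906 CPM in WT, and CSF1R (the receptor for the macrophage growth factor) 145 to 153 CPM in UA and 82.5 to 154 CPM in WT, so transcripts of the labelled lineage were present in all 6 libraries. Their levels differed in both directions: of 16 such markers tested, 9 were called higher and 3 lower in UA. CD14, among the latter, had 18.4 to 24.1 CPM in UA and 965 to 1410 CPM in WT.

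Matrix transcripts were far more abundant in the UA libraries. The 64 genes together had 2386, 2446 and 2412 CPM in UA replicates 1 to 3, against 300.4, 372 and 383 CPM in WT replicates 1 to 3. The UA mean of 2415 ± 29.98 CPM was 6.86 times the WT mean of 352 ± 45.0 CPM (SD, n = 3 each). The groups did not overlap, and without the type I chains and COL6A3 the means were 949.7 CPM in UA and 349 CPM in WT, a ratio of 2.72. In such bulk colonies, fewer cells of a type and less RNA per cell cannot be told apart.

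The make-up of the sum differed as well. In UA, COL6A3, COL1A2, COL1A1 and FN1 gave 24.3%, 23.2%, 13.2% and 11.9% of these counts. In WT, DCN and FN1 gave 32.1% and 30.0%, followed by LAMB2 with 12.2%. These are shares of counts, which a long transcript raises, and levels are not compared between genes here because transcript lengths were not used.

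**Figure D1:**
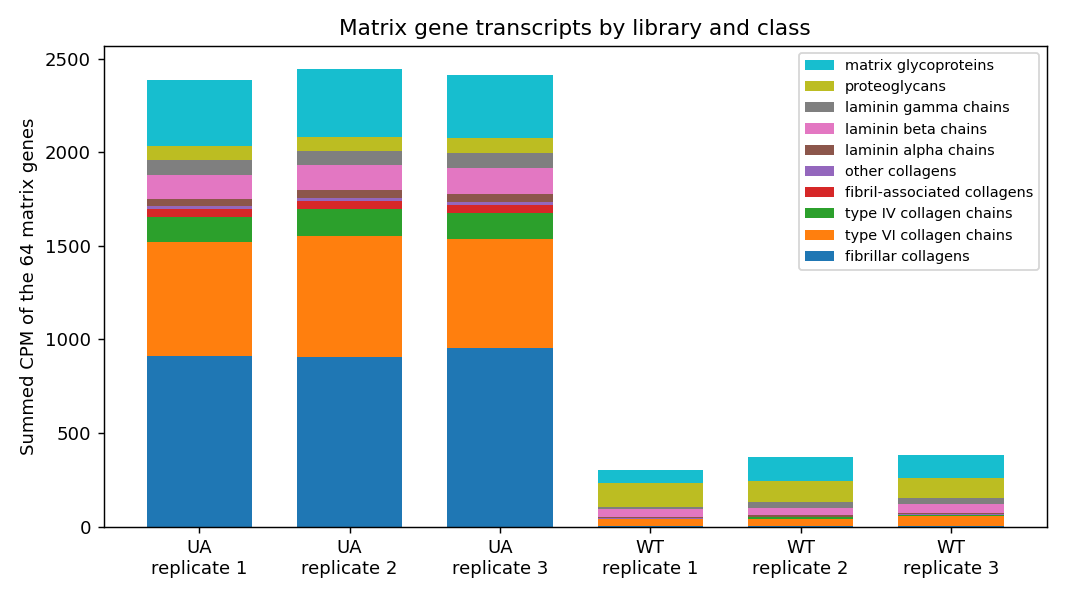
Stacked bars show, for each of the 6 libraries, the summed CPM of the 64 matrix genes, split into 10 classes. The UA libraries reach 2386 to 2446 CPM and the WT libraries 300.4 to 383 CPM, and the fibrillar class, 925 CPM on average in UA, is 3.32 CPM in WT.

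By the rule of at least 1 CPM in 2 of 3 libraries, 39 of the 64 genes (60.9%) were detected in UA and 14 (21.9%) in WT. Over all rows of the table the same rule gave 42.2% in UA and 38% in WT. Of those 32386 rows, 13408 had no symbol from any source, so matrix genes could not be found among them. All 14 genes detected in WT were also detected in UA, 25 were detected in UA alone and 25 in neither group. At least 1 count in any library was found for all 64 genes in UA and for 47 in WT, although the WT libraries had the larger totals. Every library was then thinned to the smallest total. At least 1 count remained for 61, 57 and 57 genes in UA replicates 1 to 3. In WT replicates 1 to 3 it remained for 34, 29 and 28 genes. After this thinning, 41 genes in UA and 13 in WT met the 1 CPM rule. The share over all rows was computed only for detection in each group by the 1 CPM rule before thinning.

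Of the 64 genes, 37 had enough counts to be tested, and edgeR's quasi-likelihood test called 30 higher and 3 lower in UA at an adjusted p under 0.05. Over all 13768 genes tested, 34.6% were called higher and 31.4% lower, 66.0% in all. The median log2 difference (log2 fold change of UA over WT, as throughout) was 3.73 over the 37 genes, also with genes at 0 in WT set to their bound, and 0.12 over all genes tested. Without the count filter the medians were 3.56 over the matrix genes and 0.91 over all genes. A gene that is high in 1 group alone passes the count filter through that group. The counts and medians over tested genes, here and in the classes below, thus describe them and are not given as support. The libraries of the groups did not overlap for 36 of the 37, 33 with UA above WT and 3 with UA below, while the groups did not overlap for 73.2% of all genes tested, with UA above for 39.2% and below for 34%. With the UA libraries summed to 1 sample, 26 were called higher and 1, DCN, lower, against 21.4% and 17.5% of all genes tested.

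**Figure D2:**
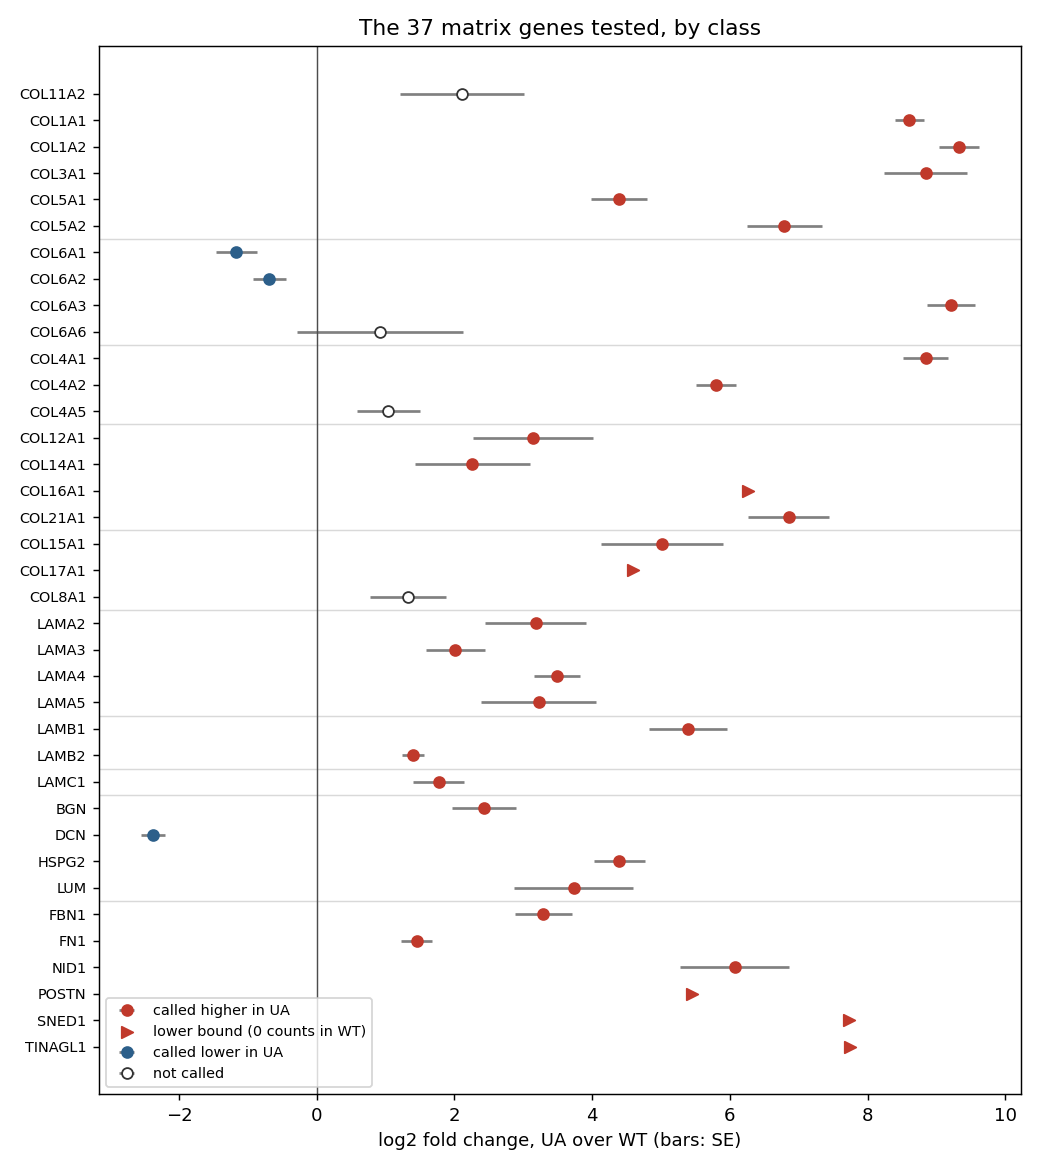
Points give the log2 fold change of UA over WT with its SE for the matrix genes tested, in classes separated by grey lines; triangles are lower bounds for 5 genes with 0 counts in WT, and open circles did not pass the test. COL6A1, COL6A2 and DCN lie below 0, and the type I chains, COL3A1, COL4A1 and COL6A3 lie above 8.

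Fibrillar collagens, the fibre-forming types, were close to absent in WT. In UA 5 of 6 tested members rose, against 34.6% of all genes tested. COL1A1, the alpha1 chain of type I collagen, had 316, 314 and 328 CPM in UA, against 0.822, 0.765 and 0.842 CPM in WT. COL1A2, its alpha2 partner, had 554, 552 and 574 CPM in UA, against 0.548, 1.43 and 0.842 CPM in WT. In both genes the WT libraries held 8 to 18 counts each and no UA library held fewer than 2223. The log2 differences were 8.60 for COL1A1 (SE 0.21, adjusted p = 2.89e-09 by edgeR) and 9.32 for COL1A2 (SE 0.29, adjusted p = 9.29e-09 by edgeR).

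The chains that join type I fibres followed. COL3A1, of the reticular fibres of marrow and other soft tissues, had 13.7, 15.6 and 15.2 CPM in UA and a single count over the 3 WT libraries, a ratio of 642 (95% counting interval 115 to 25400). COL5A1 and COL5A2 are chains of type V collagen, which sets the width of type I fibrils. COL5A1 had 11.0, 11.4 and 18.0 CPM in UA and 0.640, 0.383 and 0.842 CPM in WT, a log2 difference of 4.39 (SE 0.41, adjusted p = 6.83e-06 by edgeR). COL5A2 had 13.9, 10.5 and 15.7 CPM in UA and 0.137, 0 and 0.168 CPM in WT, a log2 difference of 6.79 (SE 0.54, adjusted p = 2.32e-06 by edgeR). COL3A1 and COL5A2 are neighbours in the genome, with no protein-coding gene between them in RefSeq's annotation of the T2T-MMU8v2.0 assembly.

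The cartilage fibrillar chains stayed low, as did COL5A3, a further chain of type V collagen. COL11A2, a chain of type XI collagen, had 0.921, 1.64 and 3.25 CPM in UA and 0.548, 0 and 0.674 CPM in WT. Its log2 difference of 2.11 did not pass (SE 0.90, adjusted p = 0.0587 by edgeR). It was called in 4 of the 13 alternative settings that kept it, with library size alone (2.31, adjusted p = 0.0475 by edgeR), the DESeq2 test (2.17, 0.0421), limma-voom (2.83, 0.0174) and without WT replicate 1 (2.36, 0.0483), and its adjusted p reached 0.336 in the others. COL2A1, of type II collagen, had 40, 6 and 5 counts in UA and 1, 0 and 0 in WT, too few to be tested, with a ratio of 63.3 (95% counting interval 10.9 to 2550). COL27A1, COL11A1 and COL5A3 overlapped between the groups, with 11, 23 and 1 counts over the UA libraries and 18, 8 and 0 over the WT libraries.

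Type VI collagen, a beaded microfibril that surrounds cells, was the class whose chains moved apart. Its unit is classically assembled from alpha1, alpha2 and alpha3 chains, the products of COL6A1, COL6A2 and COL6A3. COL6A3 had 584, 623 and 551 CPM in UA, against 0.411, 1.43 and 1.43 CPM in WT, a log2 difference of 9.21 (SE 0.35, adjusted p = 2.91e-08 by edgeR). COL6A1 had 6.02, 7.21 and 4.73 CPM in UA, against 10.96, 11.7 and 18.0 CPM in WT, and fell by 1.17 on the log2 scale (SE 0.30, adjusted p = 0.00572 by edgeR). COL6A2 had 16.5, 11.9 and 20.1 CPM in UA, against 22.98, 24.96 and 30.3 CPM in WT, and fell by 0.69 (SE 0.24, adjusted p = 0.0271 by edgeR).

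The UA libraries thus lay above WT for COL6A3 and below it for the other two chains. The call of COL6A2 depended on the libraries and scaling used: it was not called with library size alone (log2 difference -0.54, adjusted p = 0.0966 by edgeR), without UA replicate 1 (-0.71, 0.0736), without UA replicate 2 (-0.51, 0.126) or without WT replicate 3 (-0.62, 0.0691). COL6A1 was called in 13 of the 14 alternative settings. With the UA libraries summed neither was called, at -1.12 for COL6A1 (adjusted p = 0.106 by edgeR) and -0.70 for COL6A2 (0.22). COL6A1 and COL6A2 are genomic neighbours, on chromosome 3 from 767396 to 788789 and from 637046 to 659388 in the authors' deposited table, whose build is not named, while COL6A3 lies on chromosome 12 from 120048646 to 120122053. Of the alternative alpha3-like chains, COL6A5 had 15, 14 and 3 counts in UA and 0 in WT, at least 13.2-fold higher if WT is set to 3 counts over its libraries together, the floor used throughout. COL6A6 had 8, 10 and 12 counts in UA and 1, 0 and 19 in WT and was not called (log2 difference 0.92, adjusted p = 0.52 by edgeR); without WT replicate 3 it was, at 4.61 (0.0125).

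**Figure D3:**
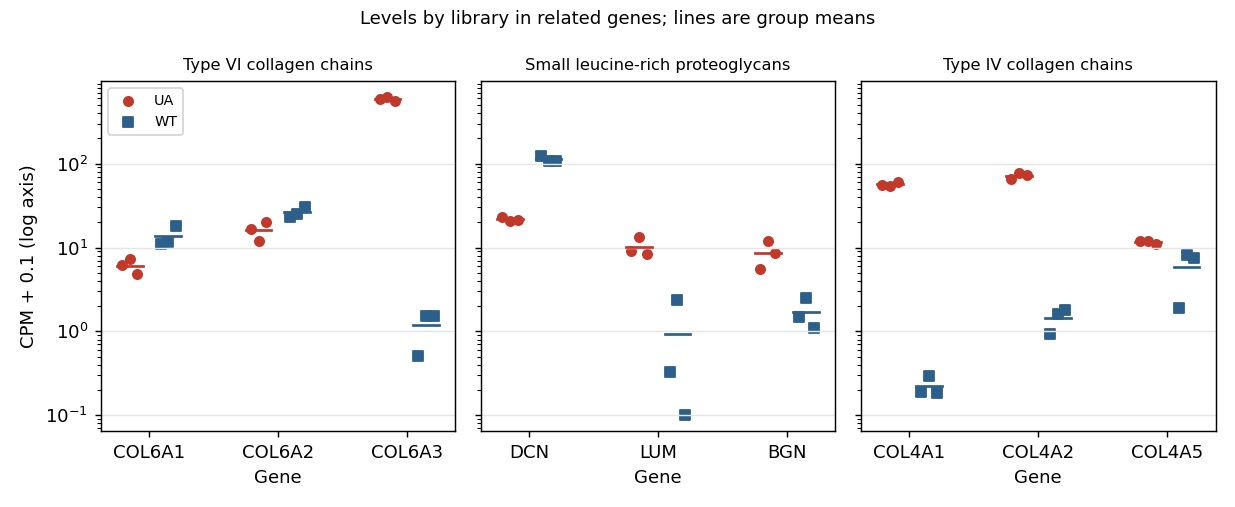
Each panel shows related genes with CPM + 0.1 per library on a log axis, UA as circles left of WT as squares, and a line at each group mean. COL6A3 is at 551 CPM or more in every UA library while COL6A1 and COL6A2 lie lower in UA than in WT, and DCN lies lower in UA while LUM and BGN lie higher.

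Type IV collagen, the network of basement membranes, rose through its widespread chains. COL4A1 had 55.1, 54.1 and 59.8 CPM in UA, against 0.0914, 0.191 and 0.0842 CPM in WT, where 5 counts were seen in all. COL4A2 had 65.7, 76.4 and 72.4 CPM in UA, against 0.822, 1.53 and 1.68 CPM in WT. These chains join into a single trimer, and their genes are neighbours. The log2 differences were 8.84 for COL4A1 (SE 0.33, adjusted p = 2.17e-08 by edgeR) and 5.79 for COL4A2 (SE 0.29, adjusted p = 1.25e-07 by edgeR).

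COL4A5, a chain known from kidney basement membrane, had 11.9, 11.8 and 10.8 CPM in UA and 1.83, 8.03 and 7.33 CPM in WT. UA lay above WT, but WT replicate 1 was well below the other WT libraries, and the log2 difference of 1.04 did not pass (SE 0.46, adjusted p = 0.0672 by edgeR). It was called in 5 of the 14 alternative settings, among them the DESeq2 test (1.03, adjusted p = 0.0481), limma-voom (0.80, 0.032), no filter (1.02, 0.0101) and the fit without WT replicate 2 (1.37, 0.0412). Without WT replicate 1 it was 0.57 (0.0775). Its kidney partners COL4A3 and COL4A4 had 38 and 17 counts over the UA libraries and 6 and 1 over the WT libraries, and both overlapped. COL4A6 had 8 counts in UA and 0 in WT.

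Fibril-associated collagens decorate fibrils or link them to their surroundings. Only 4 of the 10 members could be tested, and all 4 rose, against 34.6% of all genes tested. COL21A1 had 27.8, 31.8 and 31.3 CPM in UA, against 0.548, 0 and 0 CPM in WT, a log2 difference of 6.85 (SE 0.59, adjusted p = 4.1e-06 by edgeR). Its WT counts, 12 in all, came from WT replicate 1 alone, so WT is at 0 without it. COL16A1 had 5.20, 5.77 and 4.28 CPM in UA and 0 counts in WT, at least 76.6-fold higher. COL12A1 had 4.82, 5.29 and 1.33 CPM in UA and 0.731, 0.478 and 0 CPM in WT, a log2 difference of 3.14 (SE 0.87, adjusted p = 0.00797 by edgeR). UA replicate 3 was low for this gene, and the call was lost with the UA libraries summed (3.35, adjusted p = 0.0503 by edgeR). Leaving out WT replicate 1 gave 4.01 for COL12A1 and leaving out WT replicate 3 gave 2.56.

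COL14A1 was the weakest call, with 2.28, 1.64 and 2.36 CPM in UA and 0.822, 0 and 0.337 CPM in WT. Its log2 difference was 2.26 (SE 0.84, adjusted p = 0.034 by edgeR). It was not called without UA replicate 1, 2 or 3 (edgeR adjusted p = 0.0964, 0.0636 and 0.0841), without WT replicate 3 (0.0907) or with UA summed (0.215), and without WT replicate 1 it was 3.47. The other 6 members of this class had 3 to 20 counts over the UA libraries and at most 1 over the WT libraries.

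Among the remaining collagens, COL15A1, a collagen of the basement membrane zone, had 3.36, 3.27 and 4.14 CPM in UA and 0.228, 0 and 0 CPM in WT, a log2 difference of 5.01 (SE 0.89, adjusted p = 0.000514 by edgeR). Its 5 WT counts were all in WT replicate 1, so here too WT is at 0 without it. COL17A1, a transmembrane collagen best known from the hemidesmosomes of skin, had 34, 15 and 9 counts in UA and 0 in WT, at least 24.0-fold higher. COL18A1, whose tail is released as endostatin, had 27, 6 and 17 counts in UA and 0 in WT, at least 20.7-fold higher, and was too low to be tested. COL8A1, a short-chain collagen of vessel walls, had 5.10, 5.58 and 6.79 CPM in UA and 2.19, 0.669 and 4.04 CPM in WT. UA lay above WT, and the log2 difference of 1.32 narrowly missed the threshold (SE 0.55, adjusted p = 0.0527 by edgeR). It passed in 7 of the 14 alternative settings, with an adjusted p from 0.0128 with limma-voom (1.60) to 0.039 with library size alone (1.49); the fit without WT replicate 3 gave 1.86 (0.018), and the adjusted p reached 0.267 where it did not pass. COL7A1, the anchoring fibril collagen, was the only untested member with a higher mean in WT, with 7, 2 and 3 counts in UA and 3, 13 and 7 in WT.

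**Figure D4:**
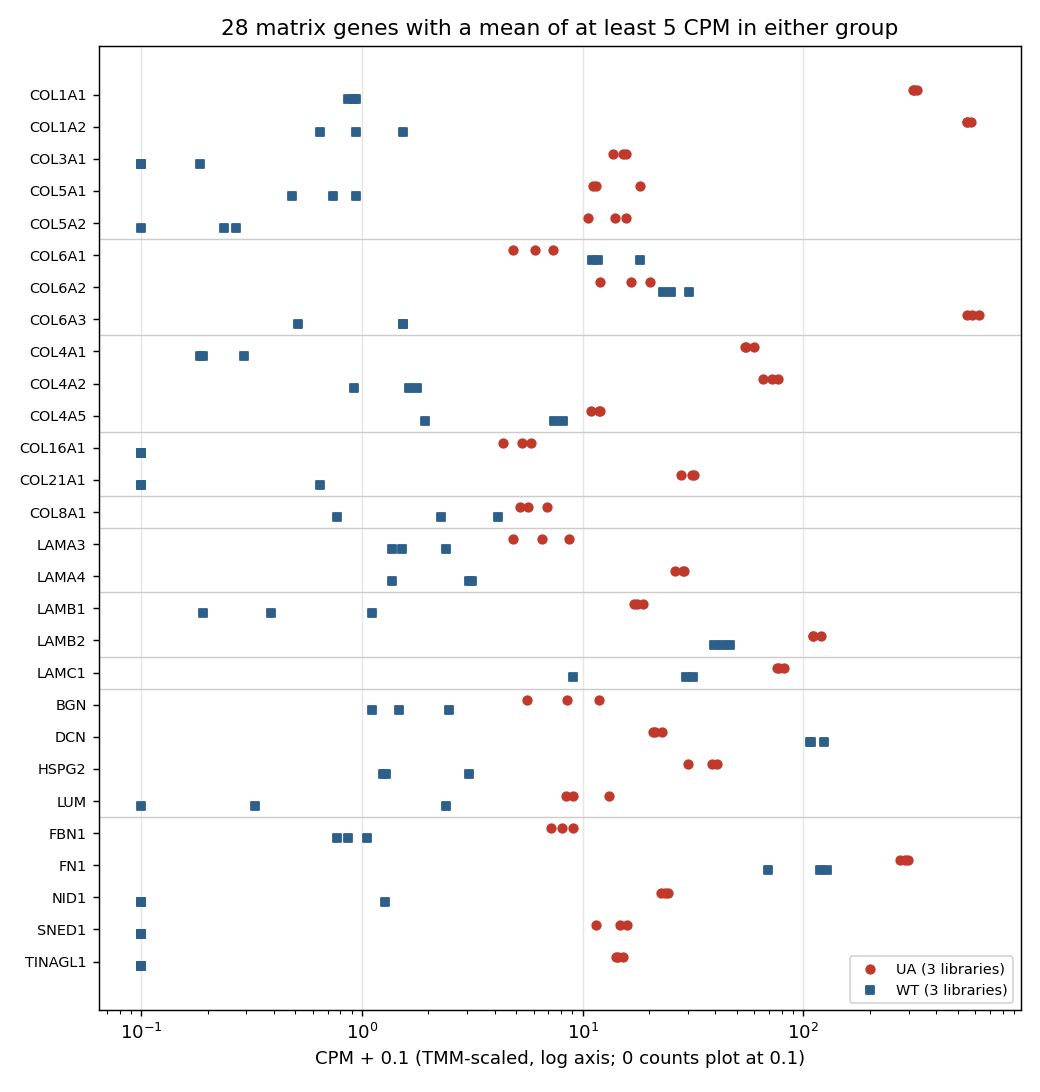
Points give CPM + 0.1 per library on a log axis for the 28 matrix genes with a mean of at least 5 CPM in either group, UA as circles and WT as squares, and a library with 0 counts is drawn at 0.1. UA lies above WT for all but COL6A1, COL6A2 and DCN, and the UA points of most genes lie closer together than the WT points.

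Laminin chains, the adhesive trimers of basement membranes, rose in all 7 tested members, against 34.6% of all genes tested. LAMA4, the alpha chain typical of vessels, had 26.1, 28.8 and 28.4 CPM in UA, against 2.97, 3.06 and 1.26 CPM in WT, a log2 difference of 3.49 (SE 0.33, adjusted p = 6.47e-06 by edgeR). LAMA2, the alpha chain typical of muscle, had 2.82, 5.48 and 2.81 CPM in UA and 0.731, 0.287 and 0.0842 CPM in WT. LAMA3, typical of epithelia, had 8.56, 6.44 and 4.73 CPM in UA and 1.42, 2.30 and 1.26 CPM in WT. LAMA5, a widespread alpha chain, had 1.79, 2.31 and 2.36 CPM in UA and 0.274, 0.383 and 0 CPM in WT. All 4 alpha chains had UA above WT, with log2 differences of 3.18 for LAMA2, 2.01 for LAMA3 and 3.22 for LAMA5 (SE 0.73, 0.43 and 0.83; edgeR adjusted p = 0.00282, 0.00184 and 0.00552). With UA summed, LAMA2 (3.21, adjusted p = 0.0547 by edgeR) and LAMA5 (3.20, 0.103) were not called, and without WT replicate 1 LAMA2 was 4.26.

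The beta and gamma chains that pair with them rose by unlike amounts. LAMB1 had 17.5, 18.7 and 17.0 CPM in UA, against 0.0914, 0.287 and 1.01 CPM in WT, a log2 difference of 5.39 (SE 0.57, adjusted p = 1.43e-05 by edgeR). This value was 4.69 without WT replicate 1 and 6.66 without WT replicate 3, which held 12 of the 17 WT counts. LAMB2 had 110.5, 110.2 and 119.6 CPM in UA, against 42.9, 39.5 and 46.6 CPM in WT, a log2 difference of 1.40 (SE 0.16, adjusted p = 2.2e-05 by edgeR). LAMC1, the gamma chain of most laminins, had 75.8, 77.3 and 81.4 CPM in UA, against 8.91, 29.3 and 31.4 CPM in WT. WT replicate 1 was the low library again, and the log2 difference was 1.77 with it (SE 0.37, adjusted p = 0.00163 by edgeR) and 1.34 without it (1.06e-07). LAMB3, a beta chain of epithelia, had 43 counts over the UA libraries and 2 over the WT libraries, a ratio of 26.7 (95% counting interval 6.95 to 227). LAMA1, LAMB4 and LAMC3 had 19, 41 and 15 counts over UA and 2, 10 and 6 over WT.

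The other basement membrane proteins rose with them. NID1, nidogen, which bridges laminin and type IV collagen, had 22.5, 23.6 and 24.2 CPM in UA, against 0, 0 and 1.18 CPM in WT, a log2 difference of 6.07 (SE 0.79, adjusted p = 6.29e-05 by edgeR). All 14 WT counts were in WT replicate 3, without which WT is at 0, and without WT replicate 1 the value was 5.19. HSPG2, the heparan sulphate proteoglycan perlecan, had 38.3, 29.9 and 40.8 CPM in UA, against 1.19, 1.15 and 2.95 CPM in WT, a log2 difference of 4.39 (SE 0.37, adjusted p = 3.23e-06 by edgeR). TINAGL1, a secreted glycoprotein of basement membranes, had 264, 158 and 95 counts in UA and none in WT, at least 214-fold higher. TINAGL1 lies on chromosome 1 from 30623755 to 30634914 in the deposited table.

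The small leucine-rich proteoglycans, which bind collagen fibrils and guide their assembly, went both ways. DCN, decorin, had 22.7, 20.8 and 21.3 CPM in UA, against 123.7, 107.8 and 106.9 CPM in WT, and fell by 2.38 on the log2 scale (SE 0.17, adjusted p = 1.1e-06 by edgeR). It was called lower under all 14 alternative settings tried. LUM, lumican, is the next protein-coding gene to DCN in RefSeq's annotation, and had 8.94, 13.1 and 8.27 CPM in UA, against 0.228, 2.30 and 0 CPM in WT. Its log2 difference was 3.73 (SE 0.86, adjusted p = 0.00293 by edgeR), and 6.06 without WT replicate 2, which held 24 of the 29 WT counts. BGN, biglycan, had 5.47, 11.7 and 8.42 CPM in UA, against 1.37, 2.39 and 1.01 CPM in WT, a log2 difference of 2.43 (SE 0.46, adjusted p = 0.000789 by edgeR). DCN thus lay below WT in all 3 UA libraries, and LUM and BGN above it in all 3.

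Glycoproteins of the interstitial matrix rose in all members, against 34.6% of all genes tested. FN1, fibronectin, which cells bind through integrins, had 289.5, 299 and 275 CPM in UA, against 69.0, 128 and 119 CPM in WT. The log2 difference was 1.45 (SE 0.22, adjusted p = 0.000163 by edgeR), and 1.20 without WT replicate 1, the lowest WT library. FBN1, fibrillin of elastic microfibrils, had 8.997, 7.12 and 7.98 CPM in UA, against 0.959, 0.765 and 0.674 CPM in WT, a log2 difference of 3.29 (SE 0.41, adjusted p = 4e-05 by edgeR). POSTN, periostin, had 59, 30 and 16 counts in UA and none in WT, at least 43.5-fold higher. SNED1, a secreted matrix glycoprotein, had 270, 164 and 77 counts in UA and none in WT, at least 211-fold higher.

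Spread within a group differed between UA and WT. Over the 14 matrix genes with a mean of at least 1 CPM in WT and 5 CPM in either group, the median coefficient of variation was 6.84% in UA and 37.9% in WT. It was larger in WT for 13 of the 14, the exception being COL6A2 (25.3% in UA and 14.5% in WT). Most of these genes had lower levels in WT, and low counts raise this measure by sampling alone. COL6A3, for one, had 9, 15 and 17 counts in WT. DCN and COL6A1, both higher in WT, had 4.67% and 20.8% in UA and 8.38% and 28.7% in WT. FN1, with 1342 or more counts in every WT library, had 4.19% in UA and 30.2% in WT. The part that level has in the difference was not tested. WT replicate 1 was the lowest WT library for 7 of the 14 and the highest for 1, DCN. The 27 genes too low for the test had 1 to 51 counts over the UA libraries and 0 to 23 over the WT libraries. UA lay above WT for 10 of them, the groups overlapped for 17, and 12 had no count in WT. The shares over all rows too low for the test were not computed, so these counts only describe the genes.

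Receptors for matrix proteins rose in 16 of 21 tested genes (76.2%) and fell in 1 (4.76%), against 34.6% higher and 31.4% lower over all genes tested; these shares are the background for each list that follows. The median log2 difference of this list was 1.83. ITGB3, the integrin beta3 chain of platelets and other cells, averaged 21.6 CPM in UA and 1.78 CPM in WT (log2 difference 3.65), and ITGA1, of a collagen-binding integrin, 10.8 CPM in UA and 2.29 CPM in WT (2.27). ITGA6, of a laminin-binding integrin, averaged 352 CPM in UA and 75.2 CPM in WT (2.23), and ITGB5 28.0 CPM in UA and 6.52 CPM in WT (2.11). CD44, the hyaluronan receptor, fell by 0.74 on the log2 scale, to 245 CPM in UA against 411 CPM in WT. These 5 calls had edgeR adjusted p of at most 0.000881, but CD44 was not called with UA summed (-0.71, adjusted p = 0.118 by edgeR).

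Of 22 tested enzymes and chaperones that make collagen, 11 rose (50%), 6 fell (27.3%) and 5 did not pass. The share that fell is near the 31.4% of all genes tested. Their median log2 difference was 0.60. SERPINH1, the collagen chaperone HSP47, had 22.1, 25.2 and 19.9 CPM in UA and 2 counts over WT, a ratio of 500.0 (95% counting interval 138 to 4130). PCOLCE, an enhancer of procollagen processing, rose by 4.11 on the log2 scale and MIA3, which helps load procollagen for export, by 1.82. ADAMTS3, a procollagen protease, rose by 1.34 (adjusted p = 0.0172 by edgeR) and was not called without UA replicate 1 (0.0652), without UA replicate 3 (0.0647) or with UA summed (0.199). LOXL3, a lysyl oxidase that crosslinks collagen, averaged 8.51 CPM in UA and 45.8 CPM in WT and fell by 2.43 on the log2 scale. FKBP10, a collagen chaperone, averaged 5.22 CPM in UA and 25.6 CPM in WT (-2.30), P4HA2, a prolyl hydroxylase chain, 6.28 CPM in UA and 24.9 CPM in WT (-1.99), and PLOD3, a lysyl hydroxylase, 21.7 CPM in UA and 61.4 CPM in WT (-1.50). The number of genes that rose was 6, 7 and 6 without UA replicate 1, 2 and 3 and 4 with UA summed. PCOLCE was 3.49 without WT replicate 1 and 5.62 without WT replicate 2.

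Of a wider list of other matrix proteins, 31 were tested. Of these, 22 rose (71.0%) and 4 fell (12.9%), and the median log2 difference was 2.19. SPARCL1, a secreted relative of SPARC, and MMRN2, an endothelial glycoprotein, had 0 counts in WT and were at least 214-fold and at least 187-fold higher in UA. FBLN2, fibulin-2, had 3 counts over WT, a ratio of 124 (95% counting interval 41.9 to 603), and TNC, tenascin-C, averaged 35.8 CPM in UA and 0.424 CPM in WT (log2 difference 6.41, and 7.07 without WT replicate 2). MMRN1, multimerin of platelets and endothelium, averaged 92.4 CPM in UA and 331 CPM in WT (log2 difference -1.84), ECM1 22.9 CPM in UA and 79.7 CPM in WT (-1.79), and THBS1, thrombospondin-1, 34.3 CPM in UA and 92.9 CPM in WT (-1.44). EMILIN1, of elastic fibres, had a log2 difference of -0.76 and was not called with UA summed (-0.71, adjusted p = 0.153 by edgeR).

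Markers of cells that make matrix moved in the same libraries. Of the fibroblast and mesenchymal list, 9 of 16 genes could be tested, and 8 rose (88.9%) and 1 fell (11.1%). Its summed level was 149.5 to 155.9 CPM in UA and 32.1 to 36.5 CPM in WT. The largest part was ENG, endoglin, which endothelium also carries, with a mean of 94.8 CPM in UA and 17.2 CPM in WT. THY1 averaged 4.65 CPM in UA and 14.0 CPM in WT. ENG rose by 2.47 on the log2 scale and S100A16 by 2.95. NT5E had 1 count in WT and a ratio of 855 (95% counting interval 153 to 33800), and DPT, dermatopontin, had 0 counts in WT and was at least 86.5-fold higher in UA. THY1 fell by 1.58 on the log2 scale, and 6 genes of the list had 0 counts in every WT library. Of these, DPT and FAP had 209 and 36 counts over the UA libraries and lay above WT, while TWIST1, TWIST2, TCF21 and CNN1 had 19, 7, 9 and 1 and overlapped.

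Of the osteoblast list 3 of 6 genes could be tested and 2 rose (66.7%), with sums of 145 to 152 CPM in UA and 17.8 to 26.4 CPM in WT. IBSP, bone sialoprotein, averaged 30.6 CPM in UA and had 2 counts over WT, a ratio of 695 (95% counting interval 192 to 5740). RUNX2, a transcription factor of bone and blood cells, rose by 2.37. Its means of 112 CPM in UA and 21.7 CPM in WT were most of the sums of this list. ALPL, the tested gene that was not called, had 2.66, 0.865 and 5.17 CPM in UA and 0.640, 1.05 and 1.18 CPM in WT. The groups overlapped for ALPL (log2 difference 1.59, adjusted p = 0.0687 by edgeR). SP7 and DMP1 had 38 and 40 counts over the UA libraries and 0 in every WT library. Of 13 endothelial markers 10 rose (76.9%) and 2 fell (15.4%), with sums of 880.0 to 906 CPM in UA and 578 to 711 CPM in WT. EMCN had 1 count in WT and a ratio of 778 (95% counting interval 139 to 30800), KDR, the VEGF receptor, had a log2 difference of 7.96 (9.24 without WT replicate 3), ROBO4 one of 6.25 and CDH5 one of 5.22, while EGFL7 fell by 1.09 and ESAM by 0.80. ESAM was not called with UA summed (-0.77, adjusted p = 0.0893 by edgeR). No endothelial marker of the list was at 0 in a whole group.

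Markers of blood lineages were counted in the same way. Of 12 megakaryocyte markers 6 rose (50%) and 2 fell (16.7%), together near the 66.0% of all genes called, with sums of 909.9 to 928 CPM in UA and 591 to 677 CPM in WT. PPBP, PF4, SELP and ITGA2B had log2 differences of 8.78, 8.32, 5.95 and 5.84, and TUBB1 and NFE2 of -1.11 and -0.62. NFE2 was not called with UA summed (-0.60, adjusted p = 0.195 by edgeR), and SELP was 5.09 without WT replicate 1 and 7.35 without WT replicate 2. Of 16 granulocyte and monocyte markers 9 rose (56.2%) and 3 fell (18.8%), with sums of 32290 to 33260 CPM in UA and 3037 to 3503 CPM in WT. ELANE, MPO, CTSG and CSF3R had log2 differences of 5.04, 4.37, 4.15 and 4.04, and CD14, SPI1 and FCGR1A of -5.73, -1.48 and -0.61. FCGR1A was not called without UA replicate 2 (-0.55, adjusted p = 0.0809 by edgeR), without UA replicate 3 (-0.54, 0.0776), with library size alone (-0.44, 0.0632) or with UA summed (-0.52, 0.319).

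Of 8 mast cell and eosinophil markers 6 rose (75.0%) and 1 fell (12.5%), with sums of 1634 to 1728 CPM in UA and 225.5 to 260.2 CPM in WT. EPX, PRG3, FCER1A and CMA1 had log2 differences of 8.31, 5.47, 2.43 and 1.87 and GATA2 of -0.75 (-0.71 and edgeR adjusted p = 0.124 with UA summed). The part that any of these cell types has in the matrix gene differences was not tested.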

How the data were processed

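RNA of single colonies was made into cDNA with the SMART-Seq V4 kit and into Nextera XT libraries, per the labels' protocols; the kit marks neither strand nor molecule, so intervals and floors cover counting error only. The submitters' processing notes name the build Mmul_8.0.1 and bcl2fastq; aligner and counter: not given in the sources used here. Deposited by the authors were raw counts per gene, with no normalization. They also deposited a table of log2 fold changes for a comparison it does not name. These had the sign of the count difference in 3 of 45 matrix genes and 28.1% of all genes, so only that table's symbols and coordinates were used.

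Symbols came from the row name for 14 of the 64 genes, from that table for 42 and from a gene name table for 8. In lists, the row with the highest total was used for a repeated symbol. Genes, lists and tests were chosen with earlier results of these data known. Counts were tested with edgeR 4.0.16 (R 4.3.3) by the robust quasi-likelihood test, fitting the 6 libraries by genotype label and nothing else. filterByExpr (minimum count 10, minimum total 15) left 13768 genes, libraries were scaled by TMM (factors 0.86 to 1.07), and the Benjamini-Hochberg adjustment of p-values ran over all of them. SE is the log2 fold change over the square root of F. A gene at 0 in WT has a fold bound, computed with 3 counts in its place. At 1 to 3 WT counts, a ratio with its exact 95% interval is given.

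Values per library are given for tested genes with a mean of at least 5 CPM in either group, for genes that did not pass and for genes at 0 in a group. From each other list, up to 4 called genes per direction are named, those with the largest fold change among genes with a mean of at least 5 CPM in either group; called genes below that mean can have larger ones. The test was checked on simulated counts that had a common spread for all genes and both groups. That check does not cover the unequal spread of the UA and WT libraries. The alternatives were DESeq2 1.42.0 size factors and its test, library size alone, no filter, a stricter filter (5 CPM in 3 libraries), limma 3.58.1 voom, a replicate block, leaving out each library, and the UA libraries summed. No sequences were used. The values of 1 gene counted among the 64 are not reported here.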

Additional observations from a re-analysis of the deposited data

How the results depend on the processing

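Among 14 alternative settings, none of the 37 matrix genes tested above changed direction in a setting that kept it. The number called higher was 23 with the stricter filter, which tests fewer genes, 26 with the UA libraries summed and 29 to 37 in the others; the number called lower was 2 or 3, and 1 with UA summed. That fit, which has fewer samples, called 2950 genes higher and 2410 lower over the whole table. Over the matrix genes the median log2 fold change was 4.43 with the stricter filter, 4.29 with limma-voom and 3.47 to 4.48 when 1 library was left out; the cause was not tested. Library size alone called 32 higher and 2 lower, and moved the median of all genes tested to 0.28, against 0.12 with TMM. With no filter, which kept 23872 genes, that median moved further, to 0.91, and the median over the matrix genes was 3.56. The replicate numbers did not pair the libraries, since deviations of same-numbered libraries correlated at 0.0129, 0.022 and 0.0132; the replicate block gave a median of 4.32, with 32 higher and 3 lower. At least 1 count in 1 library was seen for 64 genes in UA and 47 in WT. Depth limits the 27 genes that were not tested.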
